A study of Mus musculus with 9 samples.

Results

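Transcript levels of Hepa 1-6 cells in which Ythdf1 had been knocked out were compared with those of the same line carrying a control guide. Hepa 1-6 is a mouse hepatoma line that grows in culture and keeps part of the hepatocyte programme. The comparison uses 6 of the 9 samples of the series, 3 labelled sgControl and 3 labelled sgYthdf1, and every gene with at least 10 counts in 3 or more of these 6 samples, which left 13539 of the 53647 genes listed. Both groups are Hepa 1-6 cells, with no drug or other treatment named in the labels. The 3 other samples, labelled sgUsp5, carry a knockout of the deubiquitinase Usp5 and serve only for a direct contrast between the knockouts. Knockout cells were made with plasmids for CRISPR, Cas9 and EGFP, were grown into single-cell clones by serial dilution and were checked by immunoblot. The labels do not say whether the 3 samples of a group came from 1 clone or from separate cultures. P-values therefore rest on the scatter among 3 libraries a group, part or all of which may be technical. Knockout and clone cannot be told apart. Libraries were made from poly(A) mRNA after DNase treatment of the total RNA.

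YTHDF1 is a cytoplasmic protein whose YTH domain binds N6-methyladenosine (m6A), the most common internal modification of mRNA. It has been linked both to the translation of methylated transcripts and to their decay, roles it shares in part with its paralogues YTHDF2 and YTHDF3. RNA sequencing measures transcript abundance alone, so an effect on translation without a change in abundance is not seen. Targets of the stress factor ATF4 and genes of cholesterol synthesis are given by their counts alone, and the account below is about the other genes.

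The Ythdf1 knockout had higher levels of the clock repressors Ciart, Per1 and Per2, of secreted regulators of lipoprotein metabolism, of immediate early transcription factors and of several chemokines, and lower levels of Ccl2, of collagens VI and VII, of the elongase Elovl6, of the desaturase Scd2 and of the mitochondrial autophagy receptors Bnip3 and Bnip3l. The clock repressor Ciart rose from 3.97 ± 0.423 to 54.5 ± 0.798 CPM (CPM are counts scaled to library depth with TMM factors; mean ± SD, n = 3). The lipoprotein lipase regulator Angptl8 rose from 4.28 ± 0.560 to 56.4 ± 4.21 CPM. Of 13539 genes, 6228 (46%) passed the test at a Benjamini-Hochberg adjusted p under 0.05, 2928 of them higher (21.6%) and 3300 lower (24.4%), in edgeR's quasi-likelihood test. A change of at least 2-fold was seen for 1239 genes (9.15%), 554 higher and 685 lower. The groups did not overlap for 6178 of the 6228 called genes. An absence of overlap in a gene named below is therefore no trait of that gene. With library sizes alone in place of TMM scaling, the split was 2143 higher and 4080 lower, and the median of all genes moved from -0.012 to -0.12 on the log2 scale. In the list of ATF4 and amino acid response genes 50 of 61 tested members were higher and 1 lower, and in that of cholesterol synthesis and SREBP2 targets 0 of 26 tested members were higher and 19 lower.

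Libraries held between 24760877 and 41903529 counts. Control replicate 3 was the shallowest and stood apart from the other controls on the second principal component, which carried 16.5% of the variance against 67% for the first, the one that separates the groups. Mitochondrially encoded transcripts took 5.91% of its counts against 2.32% and 2.33% in the other controls and between 3.51% and 4.96% in the knockout. Among the knockout libraries, replicate 2 stood apart in the same way and less far. Without control replicate 3 a total of 7413 genes passed. Without knockout replicate 2 a total of 5687. The summed marker levels in this paragraph are CPM scaled to library totals alone, without TMM factors. Hepatocyte markers were present in all 6 libraries. The summed level of the 14 markers ran from 4581 to 5155 CPM in the controls and from 6349 to 6399 CPM in the knockout. Of these markers 11 of the 13 tested rose, among them Alb (557, 546 and 694 CPM against 1176, 1375 and 1142 CPM, with TMM factors). Of 19 leukocyte markers, 5 (Nkg7, Tyrobp, Cd3e, Cd3d and Cd8a) were at 0 counts in every library. The summed level lay at 14.1 to 15.8 CPM in the controls and up to 16.5 CPM in the knockout, with 0 higher and 0 lower among 4 tested. Endothelial markers summed to 15.5 to 22.1 CPM in the controls and at most 12 CPM in the knockout, mostly from Stab1. Stab1 had 855, 719 and 346 counts in the controls and 269, 158 and 243 in the knockout. Of 3 endothelial markers tested, 0 were higher and 1, Stab1, was lower, with a median log2 fold change of 0.51. Stellate cell markers summed to 935 to 1288 CPM against 1025 to 1247 CPM, almost all from the proteoglycan gene Dcn. Biliary and progenitor markers summed to 1055 to 1145 CPM and 1313 to 1333 CPM, with 3 higher and 2 lower of 11 tested. The part of these markers in the results was not tested.

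A trend with gene length and with base composition ran through the whole comparison. Genes were put into 10 bins by the length given in the deposited table. In the bin of the shortest (204 to 990 bases), the median log2 fold change was 0.30, with 31.2% of genes higher and 6.20% lower. In the bin of the longest (5096 bases and more) it was -0.31, with 12.4% higher and 46.5% lower. The 8 bins between fell in order. The slope of a library's deviation on log2 length was 0.044, 0.072 and 0.15 log2 CPM per doubling in the controls and -0.12, -0.037 and -0.11 in the knockout. The groups did not overlap, and their means, 0.089 ± 0.055 and -0.089 ± 0.045 (SD, n = 3), differed by -0.18 (two-sided exact permutation test, p = 0.1, the smallest that 3 against 3 samples allow). The trend was present at every level of expression: with genes split into 3 equal classes of mean log2 CPM, the shortest and longest bins of the lowest class had medians of 0.26 and -0.31, in the middle class 0.28 and -0.42, and in the highest class 0.37 and -0.25. For the Usp5 knockout against the same controls the corresponding medians were 0.055 and -0.055.

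Base composition moved with the groups as well. Over 5 bins of GC content (of the longest transcript in GENCODE vM21, matched for 13521 genes), the median log2 fold change climbed from -0.38 in the bin lowest in GC to 0.26 in the highest. The slope per 10 points of GC was -0.042, -0.15 and -0.34 log2 CPM in the controls and 0.23, 0.052 and 0.26 in the knockout, so that control replicate 3 and knockout replicates 1 and 3 were farthest apart. Length and GC content were weakly correlated across genes (Pearson r = -0.16, over genes, which are not independent replicates). The part of library preparation in these trends was not tested. Removing the smooth length trend of each library left 5869 genes called (22.7% higher and 20.7% lower), of which 5029 were called in the same direction as before. Removing both trends left 5677 (22% higher and 19.9% lower), 4224 of them shared with the first fit in the same direction. Of the 1239 genes with a 2-fold change, 851 kept both the call and the size. Counts of most gene lists below are therefore given before and after both trends were removed, and are to be read against 21.6% of all genes higher and 24.4% lower before, and 22% and 19.9% after. Fits that left out 1 library also moved the calls over all 13539 genes. Without knockout replicate 1 there were 2016 higher and 2308 lower, and without knockout replicate 3, 2065 and 2362. Without control replicate 2 there were 2208 and 2587, without knockout replicate 2, 2628 and 3059, and without control replicate 3, 3791 and 3622. List counts from those fits are to be read against these.

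**Figure D1:**
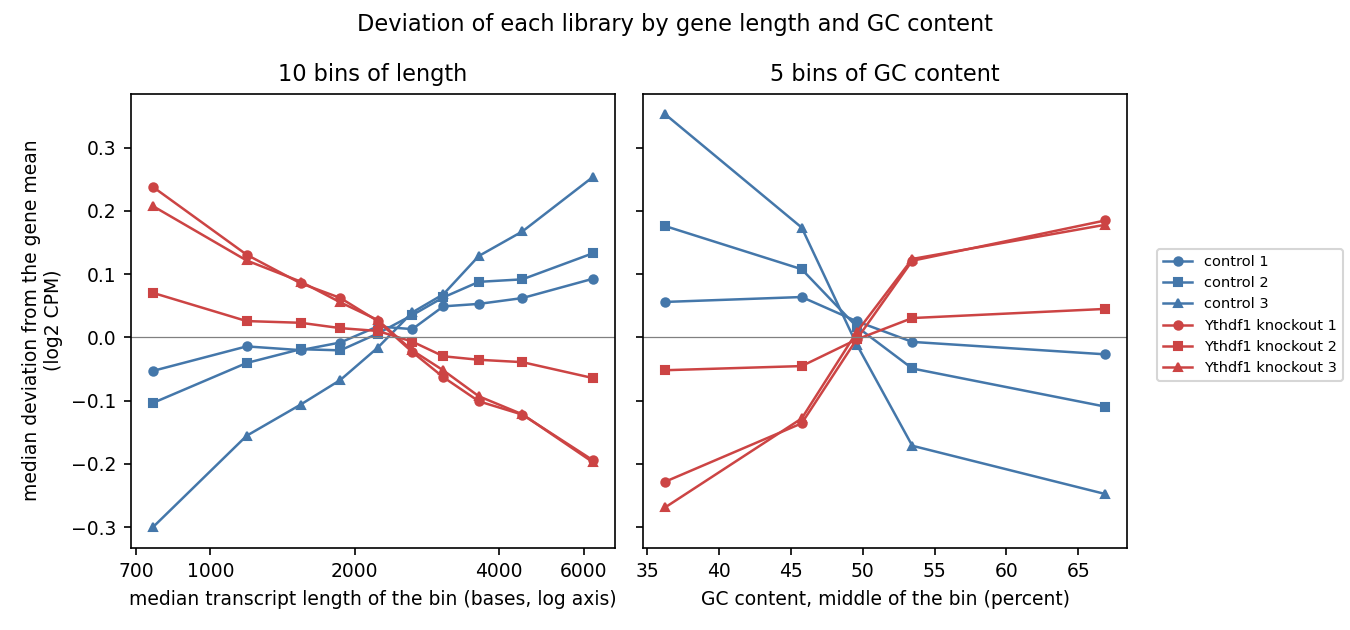
Median deviation of each library from the gene mean (log2 CPM) over 10 bins of transcript length (left, log axis) and 5 bins of GC content (right, percent), with controls in blue and Ythdf1 knockout libraries in red, 1 line per library. The lines cross near the middle: knockout libraries are high for short and GC-rich genes and low for long and GC-poor genes, controls the reverse, with control 3 the farthest from 0 among controls and knockout 2 the nearest to 0 among knockout libraries.

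The targeted transcript was still detected. Ythdf1 (gene ENSMUSG00000038848) was at 194, 185 and 196 CPM against 48.7, 45.4 and 49.1 CPM, controls first here and in every pair of triplets below. The groups were far apart. The transcript remained at 24.9% of the control level (log2 fold change -2.00 ± 0.074, edgeR quasi-likelihood test, adjusted p = 6.27e-06). The rest of the reader family differed among themselves. Ythdf2, the paralogue best known for bringing the deadenylase complex to methylated mRNA, stood at 58.4, 60.1 and 60.7 CPM in control libraries and 69.2, 69.7 and 67.2 CPM in knockout libraries, a small rise (log2 fold change 0.20 ± 0.067, adjusted p = 0.0391). That call was lost in 5 of the 6 fits that left out a library (adjusted p up to 0.130) and held without control replicate 3 (adjusted p = 0.0130). Ythdf3 fell (85.6, 94.2 and 109 CPM against 61.8, 68.3 and 56.0 CPM; log2 fold change -0.63 ± 0.11, adjusted p = 0.00318), but with both trends removed its log2 fold change was -0.084 (adjusted p = 0.338). The nuclear reader Ythdc1 overlapped between groups at 67.4, 73.4 and 108 CPM against 73.0, 88.5 and 70.4 CPM, though it was called higher (0.38) without the trends. The helicase reader Ythdc2 went from -0.51 ± 0.11 to 0.037 once the trends were removed. Of the writers, the catalytic subunit Mettl3 rose (20.5, 20.9 and 20.7 CPM against 31.1, 27.9 and 30.2 CPM; log2 fold change 0.52 ± 0.082, adjusted p = 0.00165). The demethylase Alkbh5 fell (177, 185 and 156 CPM against 108, 102 and 108 CPM; log2 fold change -0.71 ± 0.085, adjusted p = 5.73e-04), and both Mettl3 and Alkbh5 kept their direction and call without the trends. Over the whole list of m6A writers, erasers and readers, 3 of 21 tested members were higher and 10 lower, and without the trends the counts were 8 higher and 5 lower. Usp5 overlapped between the groups at 238, 229 and 185 CPM against 235, 199 and 229.9 CPM.

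Genes beside the target on chromosome 2 did not fall as a block. Its nearest measured neighbours in annotation order were the vesicular nucleotide transporter Slc17a9, which fell at a low level (1.45, 1.43 and 1.70 CPM against 0.440, 0.419 and 0.335 CPM; log2 fold change -1.92 ± 0.25, adjusted p = 7.60e-04), and Arfgap1. The latter was at 79.3, 78.2 and 59.2 CPM against 74.4, 66.6 and 73.8 CPM with a log2 fold change of -0.014. Gid8, on the far side of Slc17a9, rose by 0.34 on the log2 scale, and Dido1, beyond it, fell by 0.60. Over runs of 25 genes in order, the lowest median log2 fold change of any chromosome was on chromosome 2 (-0.89, Prelid3b to Gm14419). That run lay outside the 20 tested genes to each side of Ythdf1. The highest run on this chromosome had a median of 0.54 (Sgk2 to Gm14317).

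More clock genes rose than fell. The circadian clock is a feedback loop in which BMAL1 with CLOCK or NPAS2 binds E-boxes (CACGTG) in the promoters of the Per and Cry repressors, of Ciart and of output genes. Ciart, which encodes a repressor of BMAL1 and CLOCK, had 3.89, 3.59 and 4.42 CPM in control libraries and 53.6, 55.2 and 54.7 CPM in knockout libraries. No knockout library came near a control library, and the change was 13.8-fold (log2 fold change 3.79 ± 0.10, adjusted p = 2.70e-06). Per1 rose as well (15.1, 15.2 and 16.6 CPM against 37.7, 42.2 and 36.5 CPM; log2 fold change 1.31 ± 0.094, adjusted p = 9.09e-05). So did Per2 (3.28, 2.92 and 3.65 CPM against 7.29, 8.60 and 7.55 CPM; log2 fold change 1.26 ± 0.14, adjusted p = 4.18e-04). Of the other repressors, Cry1 rose by 0.62 and Cry2 by 0.81. Nr1d1, which represses Bmal1, went from 30.1 ± 7.11 to 54.5 ± 3.50 CPM (SD, n = 3; log2 fold change 0.86 ± 0.16, adjusted p = 0.00337). Npas2 rose at a very low level (0.0452, 0.0238 and 0.0812 CPM against 0.440, 0.609 and 0.632 CPM). Bmal1, listed as Arntl, rose by 0.41. Clock itself overlapped between the groups at 23.1, 25.6 and 31.5 CPM against 18.4, 26.7 and 16.7 CPM. It was called lower without knockout replicate 2 (log2 fold change -0.61), and across the alternatives its log2 fold change reached 0.20 at the other end. Per3 went the other way (1.74, 1.497 and 1.99 CPM against 0.733, 0.571 and 1.00 CPM; log2 fold change -1.16 ± 0.26, adjusted p = 0.00863). In all, 11 of 20 tested members were higher and 1 lower, with a median of 0.41, and without the trends the counts were 10 higher and 1 lower.

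The promoters of Ciart and Per1 are shown because both genes rose and both hold the E-box, in capitals below (RefSeq, build GRCm38.p6, 250 bases before to 50 after the start site, read 5′ to 3′). The Ciart window (chr3:95882179-95882478, minus strand) holds the letters CACGTG 3 times, beginning at positions -116, -58 and -44 from the start site. The Per1 window (chr11:69098699-69098998, plus strand) holds them once, at -166. The window of Nr1d1, which also rose, does not hold them, and that of Bnip3, which fell, holds them at -108. Of the 16 clock genes with a promoter in the table, 5 held the motif, against 10.2% of the 9998 promoters of all genes tested, 8.44% of genes that rose at least 2-fold and 10.6% of genes that fell at least 2-fold. The E-box reads the same on both strands, and it lies within the longer lysosomal motif known as CLEAR.
Ciart: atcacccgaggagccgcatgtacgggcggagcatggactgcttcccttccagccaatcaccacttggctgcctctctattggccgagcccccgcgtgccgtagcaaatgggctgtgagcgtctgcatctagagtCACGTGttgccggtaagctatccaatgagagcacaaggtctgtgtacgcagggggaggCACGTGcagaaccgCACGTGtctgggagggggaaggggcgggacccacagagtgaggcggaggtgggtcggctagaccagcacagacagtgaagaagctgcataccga
Per1: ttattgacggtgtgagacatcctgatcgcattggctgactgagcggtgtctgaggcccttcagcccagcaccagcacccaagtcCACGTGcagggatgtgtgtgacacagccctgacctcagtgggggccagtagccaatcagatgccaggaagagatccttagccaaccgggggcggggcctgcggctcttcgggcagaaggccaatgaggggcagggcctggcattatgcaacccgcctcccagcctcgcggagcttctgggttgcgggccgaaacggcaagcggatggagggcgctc

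Secreted regulators of lipoprotein metabolism rose strongly. Angptl8, a feeding-induced hepatic protein that inhibits lipoprotein lipase, stood at 3.76, 4.87 and 4.22 CPM in control libraries and 54.9, 53.1 and 61.1 CPM in knockout libraries, with no overlap (log2 fold change 3.72 ± 0.12, adjusted p = 4.56e-06). Its relative Angptl6 rose at a low level (1.15, 1.40 and 0.690 CPM against 6.49, 4.91 and 5.13 CPM; log2 fold change 2.30 ± 0.25, adjusted p = 3.86e-04). Apoe, the ligand through which remnant particles are taken up, stood at 2206, 2061 and 2065 CPM in control libraries and 5439.9, 4966 and 5544 CPM in knockout libraries. All 3 knockout values were more than 2 times any control value (log2 fold change 1.33 ± 0.086, adjusted p = 6.23e-05). Apoc4, its neighbour in the same cluster, rose from 20.9 ± 1.33 to 46.6 ± 4.70 CPM (SD, n = 3; log2 fold change 1.15 ± 0.10), and the sterol exporter Abcg1 rose by 1.25. By contrast the exporter Abca1 fell (54.2, 59.3 and 55.6 CPM against 32.5, 34.1 and 32.2 CPM; log2 fold change -0.78 ± 0.075, adjusted p = 2.59e-04). Mttp, which loads lipid onto apolipoprotein B, fell by 0.49, a call that was lost without the trends (adjusted p = 0.110). Of apolipoprotein and lipoprotein genes, 10 of 18 tested members were higher and 2 lower; without the trends the counts were 10 higher and 2 lower, with a median of 0.67 against 0.58 before.

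Plasma protein genes moved in both directions. Hemopexin (Hpx), a heme scavenger, rose (52.5, 53.7 and 28.04 CPM against 129, 93.2 and 131 CPM; log2 fold change 1.39 ± 0.25, adjusted p = 0.00300). The fibrinogen chain Fgb rose (42.3, 40.3 and 49.7 CPM against 104, 114 and 108 CPM; log2 fold change 1.30 ± 0.10, adjusted p = 1.11e-04). Serpina1a, an alpha-1-antitrypsin gene, had 4 counts over the 3 control libraries and 204 over the knockout libraries, a ratio of 65.1 with an exact 95% counting interval from 25.04 to 241. Near-identical Serpina1 copies can share reads and the value is uncertain. Complement factor B (Cfb) fell (54.1, 53.2 and 39.6 CPM against 19.6, 16.5 and 18.9 CPM; log2 fold change -1.42 ± 0.14, adjusted p = 2.67e-04). Coagulation factor F5 fell by 1.91. Complement C3 fell modestly, from 272 ± 3.53 to 205 ± 1.34 CPM (SD, n = 3), a call that was lost with the length trend alone removed (log2 fold change -0.17). In all, 16 of 26 tested members were higher and 6 lower, and the counts were 14 higher and 4 lower without the trends. Among liver-enriched transcription factors, 9 of 18 rose, including Prox1 (21.99, 20.3 and 31.0 CPM against 48.4, 62.0 and 49.8 CPM; log2 fold change 1.14 ± 0.17, adjusted p = 0.00149) and Foxa3 (1.03 ± 0.094), and 2 fell, Tbx3 (-0.73 ± 0.086) and the nuclear receptor Nr5a2 (-0.85 ± 0.15). Without the trends 8 higher and 2 lower were called. The insulin-like growth factor binding protein Igfbp1, a hepatic secreted protein, rose from a high start (199.8, 205 and 159 CPM against 713, 679 and 743 CPM; log2 fold change 1.92 ± 0.11, adjusted p = 3.60e-05).

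Immediate early genes are switched on within minutes by growth factor and stress signals. In a list that joins them with feedback genes of MAP kinase signalling, more members rose than fell. Of 44 tested, 29 were higher and 3 lower, with a median of 0.52. Without the trends the counts were 23 higher and 2 lower. Leaving aside Atf3, which the ATF4 list also holds, the largest rise was that of Klf2, a zinc finger factor. It stood at 4.95, 4.94 and 5.44 CPM in control libraries and 20.5, 18.8 and 18.97 CPM in knockout libraries and did not overlap (log2 fold change 1.93 ± 0.10, adjusted p = 1.89e-05). Egr1 rose (79.7, 76.5 and 138 CPM against 217, 262 and 215 CPM; log2 fold change 1.24 ± 0.22, adjusted p = 0.00315). Control replicate 3 was the highest control for Egr1 but stayed below every knockout library. The AP-1 subunits Jun (1.07 ± 0.092), Fos (1.08 ± 0.12), Fosb (1.09 ± 0.13) and Junb (0.71 ± 0.12) all rose, and Fosl2 did not pass (122, 118 and 106 CPM against 117, 118 and 112 CPM). The phosphatase Dusp1, which switches off MAP kinases, rose by 1.13 and Dusp6 by 0.34. The inhibitors Spred1 and Spred2 fell (-0.70 and -0.43), and Spred1 lost its call without the trends (log2 fold change -0.17).

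Areg encodes the EGF receptor ligand amphiregulin. It stood at 46.6, 47.2 and 59.2 CPM in control libraries and 208, 232 and 216 CPM in knockout libraries, at least 3-fold apart in every pair of libraries (log2 fold change 2.10 ± 0.11, adjusted p = 2.32e-05). Of the other ligands, Hbegf (124, 123 and 125 CPM against 127, 128 and 131 CPM) and Tgfa (148, 144 and 160.1 CPM against 153, 166 and 159.7 CPM) did not pass, with log2 fold changes of 0.053 and 0.083. Tgfa was called higher with the length trend removed (0.29) and with both trends removed (0.21). The receptor Egfr rose (277, 284 and 337 CPM against 399, 427 and 393 CPM; log2 fold change 0.44 ± 0.10, adjusted p = 0.00700). Mmp3, the secreted protease stromelysin 1, stood at 3.89, 4.25 and 2.43 CPM in control libraries and 25.3, 21.9 and 26.6 CPM in knockout libraries, again without overlap (log2 fold change 2.77 ± 0.19, adjusted p = 7.92e-05). Promoters of Areg and Mmp3 are printed because each holds, close to its start site, a motif of the bZIP proteins, the family that AP-1 belongs to. The Areg window (chr5:91139349-91139648, plus strand) holds the cyclic AMP response element TGACGTCA at -61, and the Mmp3 window (chr9:7445572-7445871, plus strand) the AP-1 motif TGANTCA at -46, in capitals and searched on both strands. The window of Klf2, which also rose, does not hold the cyclic AMP response element. AP-1 letters were in 5.31% of promoters of all genes tested, in 9.46% of those that rose at least 2-fold and in 6.70% of those that fell at least 2-fold. For the cyclic AMP element these shares were 3.20%, 3.58% and 1.15%. A match describes the letters in this window and shows no binding.
Areg: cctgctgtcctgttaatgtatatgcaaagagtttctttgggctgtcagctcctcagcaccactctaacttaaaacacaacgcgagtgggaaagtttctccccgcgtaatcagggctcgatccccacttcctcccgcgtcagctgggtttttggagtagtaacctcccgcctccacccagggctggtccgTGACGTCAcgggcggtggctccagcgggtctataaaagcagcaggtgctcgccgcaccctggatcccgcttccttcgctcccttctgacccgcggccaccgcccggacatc
Mmp3: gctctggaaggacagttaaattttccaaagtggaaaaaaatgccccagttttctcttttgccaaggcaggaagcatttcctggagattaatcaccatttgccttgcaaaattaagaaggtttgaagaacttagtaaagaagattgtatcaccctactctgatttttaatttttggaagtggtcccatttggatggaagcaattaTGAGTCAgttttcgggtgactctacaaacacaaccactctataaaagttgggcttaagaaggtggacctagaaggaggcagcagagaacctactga

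Other signalling pathways held single large changes. In the Hedgehog pathway the target and effector Gli1 stood at 3.85, 4.01 and 4.54 CPM in control libraries and 12.2, 12.9 and 13.8 CPM in knockout libraries and the ligand Ihh at 13.3, 13.9 and 13.2 CPM in control libraries and 35.4, 30.6 and 33.7 CPM in knockout libraries. Neither overlapped (log2 fold change 1.65 ± 0.11, adjusted p = 8.31e-05 for Gli1, and log2 fold change 1.30 ± 0.09, adjusted p = 8.29e-05 for Ihh). Notch receptors split: Notch3 rose (5.56, 4.89 and 4.83 CPM against 12.1, 10.7 and 12.8 CPM; log2 fold change 1.22 ± 0.12, adjusted p = 2.67e-04). Notch4 fell (4.19, 4.61 and 2.92 CPM against 0.843, 0.419 and 0.595 CPM; log2 fold change -2.66 ± 0.29, adjusted p = 4.13e-04). The Notch ligand Jag1 and the target Hes1 rose by 0.64 and 0.78. The R-spondin receptor gene Lgr6 fell at a low level (-2.91 ± 0.26). Over the Wnt, Notch and Hedgehog list, 9 of 38 tested members were higher and 11 lower (9 higher and 11 lower without the trends). With the length trend alone removed there were 11 higher and 6 lower, and without knockout replicate 1 there were 8 and 7. Downstream of the insulin receptor, the PI3 kinase regulatory subunit Pik3r1 rose (28.8, 32.4 and 40.1 CPM against 84.1, 103 and 83.4 CPM; log2 fold change 1.42 ± 0.14, adjusted p = 2.77e-04). The substrate adaptors parted, Irs2 higher by 0.76 ± 0.068 and Irs1 with a log2 fold change of -0.71 ± 0.067. Of the mTORC1 and nutrient sensing list, 16 of 48 tested members were higher and 14 lower, and without the trends the counts were 17 higher and 9 lower. Leaving out control replicate 2, or any 1 of the knockout libraries, left 9 or 10 higher and 11 to 14 lower. Rictor, called lower before the trends were removed, was at -0.16 after and not called.

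**Figure D2:**
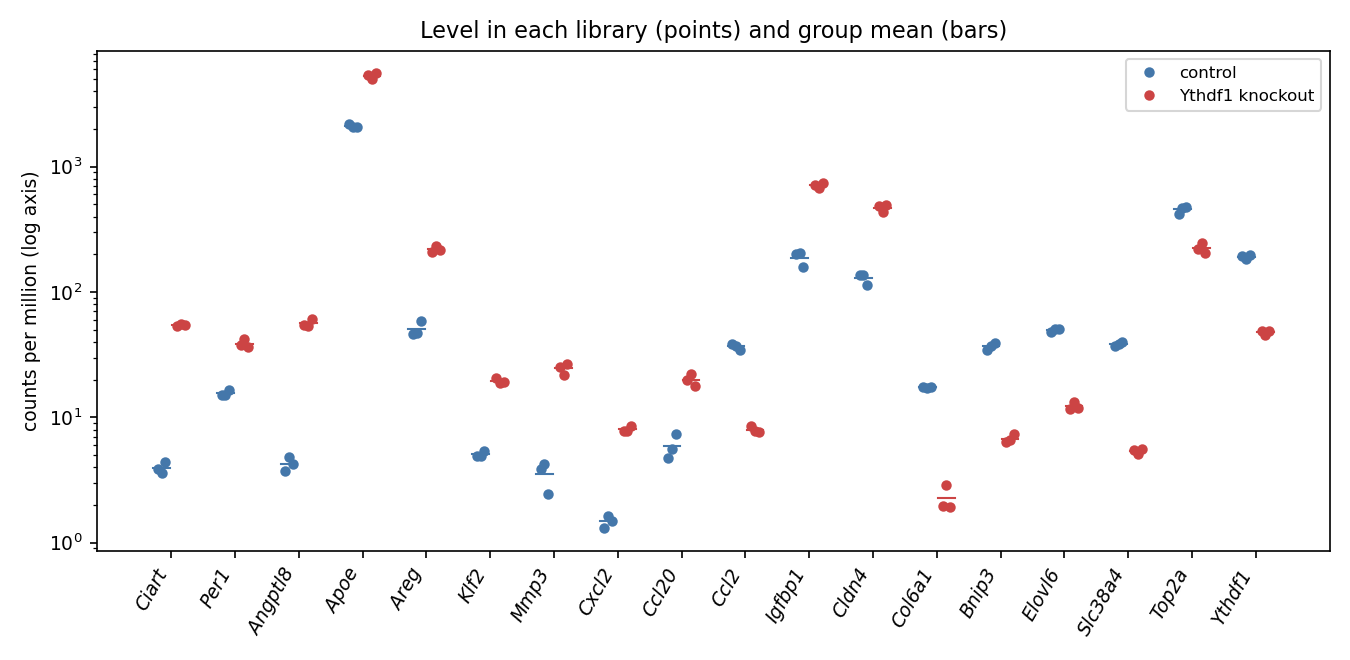
CPM (log axis) of 18 genes in each of the 3 control (blue) and 3 Ythdf1 knockout (red) libraries, with short bars for group means. The groups overlap for none of these 18 genes, and the points of a group lie close together against the gap between groups, as for Ythdf1, which goes from 192 ± 5.86 to 47.7 ± 2.01 CPM. The same absence of overlap held for 6178 of the 6228 called genes.

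Chemokines were split. The neutrophil attractants Cxcl2 (1.31, 1.64 and 1.501 CPM in control libraries and 7.80, 7.80 and 8.48 CPM in knockout libraries) and Cxcl1 (9.39, 9.91 and 9.17 CPM against 16.2, 13.9 and 16.3 CPM) rose, by 2.43 ± 0.14 and 0.70 ± 0.10 on the log2 scale. Ccl20, which attracts CCR6-bearing cells, rose (4.73, 5.56 and 7.43 CPM against 19.9, 22.1 and 17.9 CPM; log2 fold change 1.77 ± 0.17, adjusted p = 2.58e-04). So did Cxcl10 (1.23 ± 0.20) and Cxcl15 (5.97, 7.27 and 10.2 CPM against 42.8, 44.0 and 40.4 CPM; log2 fold change 2.46 ± 0.18, adjusted p = 1.01e-04). Ccl2, the monocyte chemoattractant, fell, with 38.6, 37.2 and 34.7 CPM in control libraries and 8.54, 7.84 and 7.59 CPM in knockout libraries (log2 fold change -2.21 ± 0.094, adjusted p = 8.90e-06). Cxcl5 fell as well (25.7, 27.7 and 34.7 CPM against 13.5, 13.2 and 12.4 CPM; log2 fold change -1.17 ± 0.13, adjusted p = 3.95e-04). Of 14 tested, 8 were higher and 2 lower, and the counts were the same without the trends. Among cytokines and growth factors 19 of 44 tested members were higher and 5 lower (19 higher and 8 lower without the trends). Csf2 (GM-CSF) rose at a low level (2.96, 2.95 and 4.91 CPM against 8.54, 10.8 and 7.81 CPM). Ltb (lymphotoxin beta) fell (10.8, 9.62 and 6.45 CPM against 4.98, 4.07 and 4.09 CPM; log2 fold change -1.04 ± 0.20, adjusted p = 0.00439). In the NF-kB list 7 of 35 tested members were higher and 14 lower (5 higher and 12 lower without the trends). The subunit Rela rose by 0.74, a call lost without the trends (adjusted p = 0.0822), and the adhesion molecule Icam1 by 0.73, while the target and cofactor Nfkbiz fell (25.6, 25.7 and 30.4 CPM against 10.1, 12.3 and 10.1 CPM; log2 fold change -1.33 ± 0.12, adjusted p = 2.06e-04). In the type I interferon list 5 rose and 11 fell of 37 (5 higher and 8 lower without the trends). The fall of Oasl1, an inhibitor of Irf7 translation, was the largest at a level over 5 CPM (9.43, 8.67 and 9.05 CPM against 1.21, 1.07 and 1.30 CPM; log2 fold change -2.92 ± 0.14, adjusted p = 1.30e-05).

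Of cytokine and growth factor receptors 13 of 57 tested members were higher and 18 lower (22.8% and 31.6%), shares close to those of all genes for rises and somewhat above for falls, with 14 higher and 17 lower without the trends. Il1rap, the shared chain of interleukin 1 receptors, fell (2.35, 2.26 and 2.15 CPM against 0.366, 0.533 and 0.595 CPM; log2 fold change -2.17 ± 0.24, adjusted p = 3.99e-04). So did Il15ra (-1.28 ± 0.18) and the VEGF receptor Flt1 (-1.72 ± 0.30). The ephrin receptor Epha2 rose (436, 420.0 and 371 CPM against 805, 771 and 834 CPM; log2 fold change 0.97 ± 0.087, adjusted p = 1.97e-04). The lymphotoxin receptor Ltbr rose by 0.70. Sensors of microbial products gave 2 higher and 4 lower of 22 (2 higher and 5 lower without the trends); those lower included Tlr4, the lipopolysaccharide receptor (20.1, 23.4 and 25.04 CPM against 12.9, 12.4 and 12.6 CPM; log2 fold change -0.85 ± 0.10, adjusted p = 6.25e-04). Of antigen presentation genes 9 of 29 tested members were higher and 3 lower (6 higher and 2 lower without the trends), and without knockout replicate 1 or 3 there were 5 higher and 1 lower. Of ligands that immune cells recognise on tumours 8 of 28 tested members were higher and 7 lower (6 higher and 7 lower without the trends), and 5 were higher and 6 lower without knockout replicate 1.

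Genes of the cell surface and matrix also changed in both directions. Claudin 4 (Cldn4), a tight junction protein, stood at 136, 137 and 115 CPM in control libraries and 485, 437 and 494 CPM in knockout libraries, all knockout values over 3 times the controls (log2 fold change 1.87 ± 0.10, adjusted p = 2.32e-05). The epithelial adhesion molecule Epcam rose by 1.45 ± 0.09. Claudin 2 (Cldn2) fell (16.6, 17.0 and 18.9 CPM against 7.26, 6.70 and 7.63 CPM; log2 fold change -1.28 ± 0.10, adjusted p = 1.36e-04). Among collagen genes above 5 CPM in the controls, the deepest fall on the matrix list was that of Col6a1, part of the microfibrillar collagen VI (17.6, 17.1 and 17.3 CPM against 1.98, 2.89 and 1.93 CPM; log2 fold change -2.93 ± 0.16, adjusted p = 2.53e-05). Next came Col7a1, the anchoring fibril collagen (10.5, 10.3 and 7.71 CPM against 2.56, 1.598 and 2.01 CPM; log2 fold change -2.21 ± 0.20, adjusted p = 2.13e-04). Fibrillin 2 (Fbn2) fell by 1.81. Connective tissue growth factor (Ccn2) rose from 407 ± 14.3 to 945 ± 11.1 CPM (SD, n = 3; log2 fold change 1.22 ± 0.072, adjusted p = 3.90e-05) and thrombospondin 1 (Thbs1) by 0.88. Over the list of extracellular matrix genes, 7 of 44 tested members were higher and 15 lower (9 higher and 18 lower without the trends). Of integrins, cadherins, claudins and junction proteins 12 of 41 tested members were higher and 11 lower (20 higher and 10 lower without the trends). Of matrix proteases and their inhibitors, 16 of 41 rose, including the membrane protease Mmp15 (1.51 ± 0.13) and the inhibitor Serpine2 (1.19 ± 0.081), and 8 fell, including Adam8 (10.7, 8.69 and 7.34 CPM against 1.98, 1.67 and 2.49 CPM; log2 fold change -2.12 ± 0.20, adjusted p = 2.37e-04). Without the trends 19 higher and 10 lower were called.

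Targets of TGF-beta and of YAP overlap in Ccn2 and otherwise moved in both directions. Of TGF-beta and SMAD targets 10 of 23 tested members were higher and 3 lower (11 higher and 4 lower without the trends): the secreted matrix protein Tgfbi rose at a low level (1.18, 1.14 and 0.852 CPM against 3.77, 4.64 and 5.43 CPM; log2 fold change 2.10 ± 0.21, adjusted p = 2.90e-04) and the repressor Tgif1 rose by 0.95. In contrast the signal transducer Smad3 fell (117, 115 and 119.6 CPM against 75.0, 79.8 and 76.2 CPM; log2 fold change -0.60 ± 0.068, adjusted p = 4.55e-04). Of YAP and TEAD targets 9 of 26 tested members were higher and 7 lower (12 higher and 4 lower without the trends), with Ccn1 higher (0.56 ± 0.077) and the ectonucleotidase Nt5e lower (3.05, 3.23 and 3.08 CPM against 0.293, 0.647 and 0.446 CPM; log2 fold change -2.75 ± 0.27, adjusted p = 2.59e-04). In the cytoskeleton list 13 of 49 tested members were higher and 9 lower, or 26.5% and 18.4%, against 21.6% and 24.4% of all genes. Without the trends the counts were 8 higher and 13 lower, where 22% and 19.9% of all genes were called. The intermediate filament vimentin (Vim) fell (137, 132 and 116 CPM against 76.7, 69.9 and 75.9 CPM; log2 fold change -0.79 ± 0.087, adjusted p = 4.24e-04). The focal adhesion proteins zyxin (Zyx) and paxillin (Pxn) rose by 0.76 and 0.62.

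Autophagy and lysosome genes rose in number, with small changes. Of 62 tested, 33 were higher and 7 lower (median 0.32), and without the trends the counts were 40 higher and 7 lower. Sqstm1, the cargo receptor p62, is also on the ATF4 list. Map1lc3a and Gabarapl1, which coat autophagosomes, rose by 1.23 ± 0.11 and 0.83 ± 0.071, the lysosomal hexosaminidase subunit Hexa by 0.92 ± 0.077, the lysosomal calcium channel Mcoln1 by 0.90 ± 0.088 and the proton pump subunit Atp6v0d1 by 0.86 ± 0.083. Against them, Atg3, the enzyme that joins LC3 to lipid, fell (90.1, 96.4 and 122 CPM against 35.6, 34.3 and 34.5 CPM; log2 fold change -1.56 ± 0.12, adjusted p = 1.19e-04). The initiating kinase Ulk2 fell by 0.99. The mitochondrial autophagy receptor Bnip3 stood at 34.8, 36.9 and 39.1 CPM in control libraries and 6.30, 6.58 and 7.40 CPM in knockout libraries, a clear gap (log2 fold change -2.45 ± 0.10, adjusted p = 8.01e-06). Its relative Bnip3l fell by 0.93. E-box letters were in 13 of the 49 promoters available for this list, or 26.5%, against 10.2% of all genes tested. This share was not particular to the list. Among other lists it was 26.5% for ribosome biogenesis genes (9 of 34), 24.2% for translation factors (8 of 33) and 0% for histones (0 of 24). The longer CLEAR motif, searched as 1 exact palindrome, was in 0 of the 49 autophagy and lysosome promoters and in 0.770% of all. No match says only that these letters are not in the window.

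Of iron and heme genes 5 of 24 tested members were higher and 5 lower, a share of 20.8% each way that is close to that of all genes, with 6 higher and 5 lower without the trends. There were 8 higher and 4 lower without control replicate 3, and 3 and 4 without knockout replicate 3. Transferrin receptor (Tfrc), through which cells take up iron, stood at 192, 228 and 178 CPM in control libraries and 81.3, 93.0 and 79.2 CPM in knockout libraries, with no overlap (log2 fold change -1.24 ± 0.11, adjusted p = 2.07e-04). Ireb2, whose protein binds iron-responsive elements and stabilises Tfrc mRNA when iron is low, fell too (49.2, 57.9 and 59.0 CPM against 23.7, 25.8 and 20.3 CPM; log2 fold change -1.25 ± 0.12, adjusted p = 2.28e-04). So did the iron exporter Slc40a1, or ferroportin (-0.87 ± 0.11). Ferritin heavy chain (Fth1), which stores iron, rose from a high level (1453, 1383 and 1539 CPM against 2498, 2536 and 2496 CPM; log2 fold change 0.78 ± 0.079, adjusted p = 2.98e-04).

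Bnip3 and Bnip3l also belong to the genes that hypoxia induces, and this list fell more than it rose: 3 of 32 tested members were higher and 14 lower, and without the trends the counts were 3 higher and 21 lower. The brain aldolase Aldoc fell from 5.81 ± 0.534 to 1.77 ± 0.250 CPM (SD, n = 3; log2 fold change -1.72 ± 0.16, adjusted p = 2.37e-04). So did the oxygen sensor Egln3 (34.9, 32.9 and 29.7 CPM against 14.6, 13.8 and 14.9 CPM; log2 fold change -1.17 ± 0.094, adjusted p = 1.36e-04). Of core glycolytic genes, Ldha (log2 fold change -0.26) and Pgk1 (-0.51, adjusted p = 0.0511) had overlapping groups and did not pass. Of the 17 alternatives, 2 called Ldha lower, without the trends (-0.43) and without control replicate 3 (-0.37). For Pgk1 there were 9, DESeq2 and these same settings among them (-0.59 without the trends and -0.68 without control replicate 3). The glycolytic activator Pfkfb3 (0.98 ± 0.076) rose, as did Ndrg1 and Vegfa, which are on the ATF4 list.

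Genes of fatty acid elongation and desaturation moved in both directions. The elongase Elovl6 stood at 47.8, 50.6 and 50.8 CPM in control libraries and 11.7, 13.2 and 11.98 CPM in knockout libraries and the desaturase Scd2 at 1538, 1568 and 1408 CPM in control libraries and 448, 425 and 457 CPM in knockout libraries. The groups were far apart for both (log2 fold change -2.02 ± 0.086, adjusted p = 8.90e-06 for Elovl6, and log2 fold change -1.76 ± 0.083, adjusted p = 1.30e-05 for Scd2). The glycerolipid acyltransferase Gpam and the first committed enzyme Acaca fell as well, with log2 fold changes of -1.12 and -0.71, but Fasn (799.8, 744 and 668 CPM against 707, 608 and 699.7 CPM) and Scd1 (360.3, 358 and 506 CPM against 367, 423 and 377 CPM) overlapped between groups and did not pass. The desaturase relative Fads3 rose by 0.46. The elongase Elovl1 rose by 0.34, a call lost without the trends (0.10) and without control replicate 1 or 2 or knockout replicate 1 or 3 (adjusted p up to 0.0861). Dgat2, which makes triglyceride, rose (5.56, 5.15 and 3.12 CPM against 16.5, 15.3 and 17.0 CPM; log2 fold change 1.79 ± 0.19, adjusted p = 3.76e-04). So did the lipid droplet coat protein Plin2 (0.99 ± 0.11) and Hilpda, a droplet protein that inhibits lipolysis (0.80 ± 0.11). Of the synthesis list 4 rose and 8 fell among 23 (5 higher and 8 lower without the trends); of the oxidation and droplet list 13 rose and 4 fell among 26 (11 higher and 6 lower without the trends).

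Single enzymes of amino acid metabolism outside the ATF4 list moved as well. Ass1, the urea cycle enzyme that makes argininosuccinate, stood at 30.7, 28.01 and 30.2 CPM in control libraries and 115, 108 and 112 CPM in knockout libraries, and the mitochondrial arginase Arg2 at 12.7, 13.1 and 12.2 CPM in control libraries and 55.0, 50.6 and 52.98 CPM in knockout libraries. Neither overlapped (log2 fold change 1.91 ± 0.076, adjusted p = 6.95e-06 for Ass1, and log2 fold change 2.06 ± 0.081, adjusted p = 6.95e-06 for Arg2). The sodium-coupled amino acid transporter Slc38a4 fell (36.8, 38.2 and 40.1 CPM against 5.53, 5.14 and 5.58 CPM; log2 fold change -2.82 ± 0.092, adjusted p = 4.56e-06). Sarcosine dehydrogenase (Sardh) was nearly lost (10.5, 9.62 and 7.22 CPM against 0.183, 0.266 and 0.298 CPM; log2 fold change -5.18 ± 0.25, adjusted p = 1.40e-05). Over the list of amino acid catabolism and urea cycle genes, 8 of 25 tested members were higher and 4 lower, and without the trends the counts were 8 higher and 9 lower.

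Of p53 target genes, 20 of 35 tested members were higher and 4 lower (median 0.44), and without the trends the counts were 23 higher and 4 lower. Apart from Gadd45a and Sesn2, which the ATF4 list also holds, rises were seen for the cell death genes Bbc3 (PUMA; 14.5, 13.4 and 10.1 CPM against 35.6, 34.2 and 38.4 CPM; 2.83-fold, adjusted p = 2.01e-04) and Pmaip1 (NOXA; 59.7, 66.8 and 65.2 CPM against 127, 139 and 134 CPM; log2 fold change 1.06 ± 0.078, adjusted p = 1.04e-04) and for the kinase gene Plk3 (1.26 ± 0.091). The cell cycle inhibitor Cdkn1a rose from 186 ± 21.5 to 326 ± 2.94 CPM (SD, n = 3; log2 fold change 0.81 ± 0.094, adjusted p = 5.03e-04). Mdm2, the main p53 ligase, did not pass (168, 176 and 231 CPM against 226, 285 and 231 CPM; adjusted p = 0.0681). It was called higher in 6 of 17 alternatives, among them DESeq2, removal of both trends (0.55) and leaving out control replicate 3 (0.55). Its partner Mdm4 fell (62.5, 67.6 and 65.0 CPM against 29.6, 37.2 and 28.9 CPM; log2 fold change -1.03 ± 0.11, adjusted p = 3.76e-04). Trp53 itself rose by 0.30, a change that did not hold without the trends (0.077, adjusted p = 0.604) or without control replicate 1 or 2 or knockout replicate 1 or 3 (adjusted p up to 0.0918).

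More mitotic genes fell than rose. In bulk RNA, fewer dividing cells and less RNA per cell cannot be told apart. Of 68 genes of mitosis, spindle and kinetochore, 36 fell and 4 rose (median -0.34), and without the trends the counts were 5 higher and 28 lower, with a median of -0.18. Top2a, which untangles chromosomes, stood at 421, 470.1 and 479 CPM in control libraries and 219, 245 and 205 CPM in knockout libraries (log2 fold change -1.03 ± 0.10, adjusted p = 2.13e-04), and its log2 fold change was -0.62 without the trends. The checkpoint kinase Bub1 fell (34.2, 40.7 and 43.8 CPM against 15.2, 19.6 and 14.5 CPM; log2 fold change -1.27 ± 0.15, adjusted p = 4.80e-04). So did the proliferation marker Mki67 (327, 355 and 562 CPM against 196, 232 and 176 CPM), whose highest value was in control replicate 3. Ube2s, an enzyme of the anaphase-promoting complex pathway, and Cdca8 (borealin) went the other way, rising by 0.55 and 0.42. The call for Ube2s was lost without knockout replicate 1 or 3 (adjusted p = 0.0676 and 0.0678). DNA replication genes were mixed: 9 of 66 tested members were higher and 22 lower (11 higher and 21 lower without the trends), with the cyclin-dependent kinase gene Cdk4 (0.50 ± 0.074) and the replicative helicase subunit Mcm7 (0.49 ± 0.072) higher and the repair gene Brca1 (-1.08 ± 0.082) and the origin recognition subunit Orc1 (-1.03 ± 0.10) lower. Among cilium and centriole genes 23 of 50 fell and 2 rose, led by the chaperonin-like Bbs12 (10.2, 12.04 and 10.1 CPM against 2.35, 2.63 and 2.68 CPM; log2 fold change -2.08 ± 0.13, adjusted p = 5.86e-05), and without the trends the counts were 2 higher and 18 lower.

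Replication-dependent histones had a median log2 fold change of 1.66, with 20 of 27 tested higher and 1 lower, and a median of 1.23 without the trends, where 17 higher and 0 lower were called. These mRNAs normally end in a stem-loop and carry no poly(A) tail, so poly(A) selection captures a small part of them. Levels were low: H3c15 stood at 2.35, 2.66 and 1.83 CPM in control libraries and 12.02, 10.5 and 14.5 CPM in knockout libraries and H2bc6 at 0.543, 0.736 and 0.771 CPM in control libraries and 3.33, 3.58 and 3.61 CPM in knockout libraries. Groups did not overlap (log2 fold change 2.41 ± 0.18, adjusted p = 1.11e-04 for H3c15, and log2 fold change 2.37 ± 0.20, adjusted p = 1.69e-04 for H2bc6). The linker histone gene H1f2 rose from 21.2 ± 4.65 to 39.8 ± 5.79 CPM (SD, n = 3; log2 fold change 0.90 ± 0.18, adjusted p = 0.00438). Histone genes are near-identical copies, so the split of reads among them is uncertain.

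**Figure D3:**
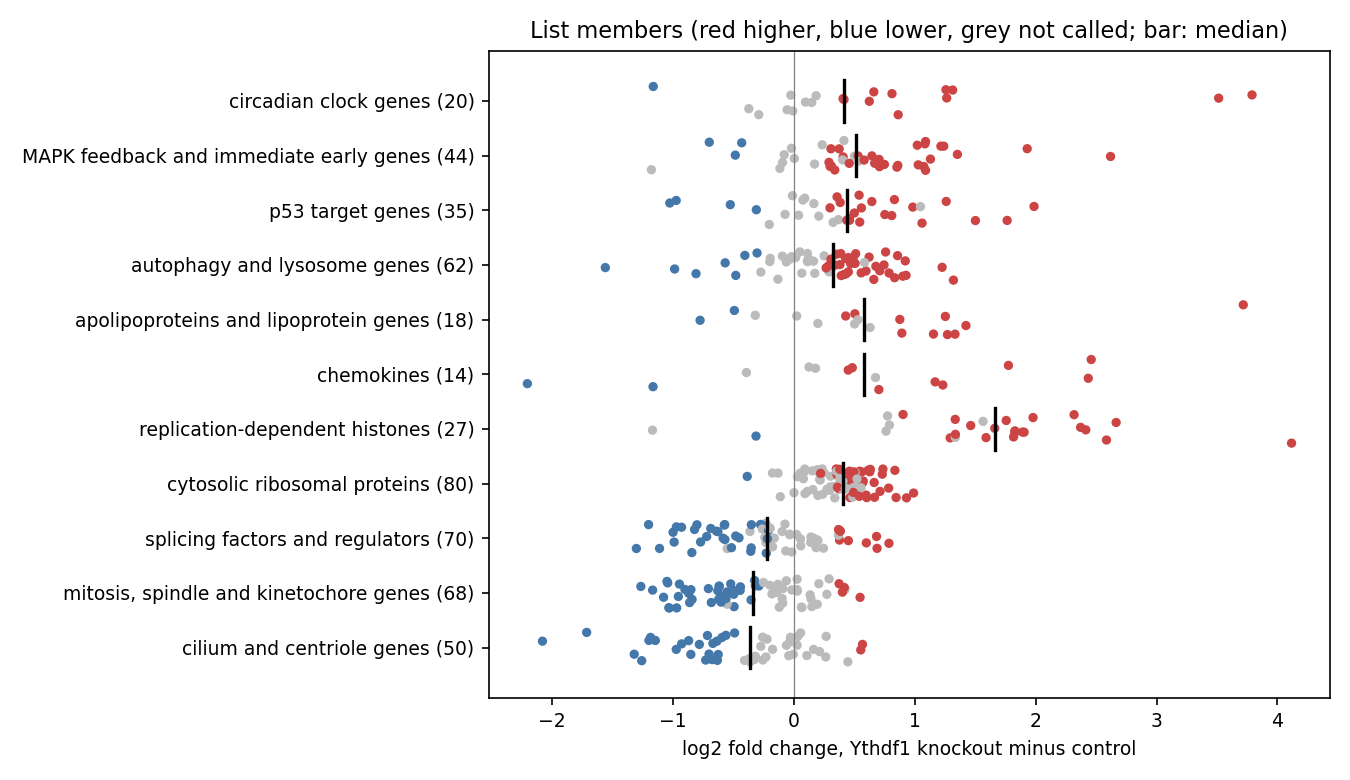
Log2 fold change (Ythdf1 knockout minus control) of each tested member of 11 gene lists, red where called higher, blue where called lower, grey where not called, with a black bar at the list median and the number tested in parentheses. Most histone members called lie to the right of 0, with a median of 1.66, and most mitosis and cilium members called lie to the left, with medians of -0.34 and -0.37.

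Counts for several large complexes depended on the trends. Of cytosolic ribosomal proteins, 38 of 80 tested members were higher and 1 lower, with a median of 0.40, and after both trends were removed the counts were 15 higher and 4 lower and the median 0.084. Rpl35 rose (596, 541 and 467 CPM against 1170.0, 887 and 1129 CPM; log2 fold change 0.99 ± 0.13, adjusted p = 9.28e-04). Rpl4 was the 1 member that fell (-0.39 ± 0.072). Nuclear-encoded subunits of the respiratory chain went from 33 higher and 1 lower of 76 to 18 higher and 8 lower, and mitochondrial ribosomal proteins from 27 and 2 of 78 to 17 higher and 11 lower. Without knockout replicate 1 or 3, 18 and 21 respiratory chain subunits and 15 and 16 mitochondrial ribosomal proteins were higher, and without control replicate 2, 17 of the latter. Splicing factors went from 9 higher and 32 lower of 70 to 11 higher and 19 lower, and without knockout replicate 1 to 6 higher and 21 lower. Hnrnpa3 (575, 653 and 663 CPM against 248, 285 and 233 CPM; log2 fold change -1.30 ± 0.10, adjusted p = 1.34e-04) and Hnrnpa1 (-0.99 ± 0.087) fell in both fits. Chromatin remodellers and histone modifiers went from 5 higher and 25 lower of 74 to 15 higher and 15 lower. The 15 mitochondrially encoded transcripts had 1 call with all libraries and 13 higher without control replicate 3.

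**Figure D4:**
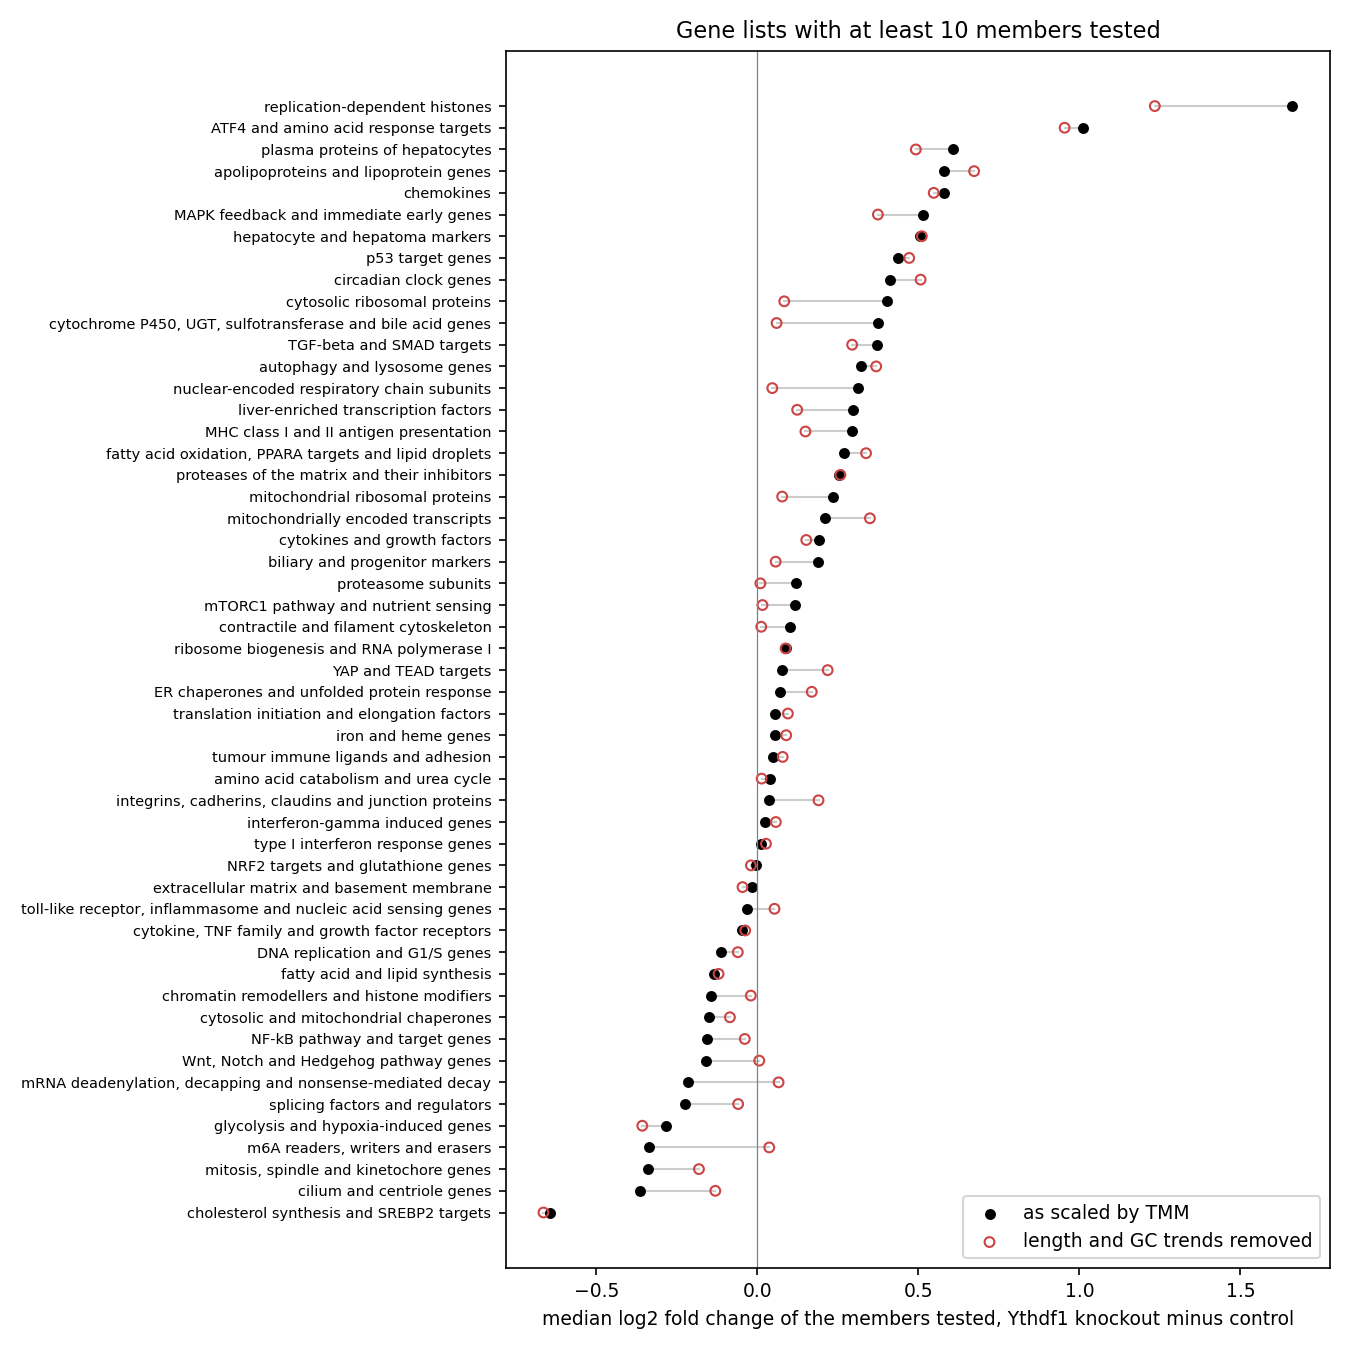
Median log2 fold change (Ythdf1 knockout minus control) of the members tested in each gene list with at least 10 of them, as scaled by TMM (black) and after the length and GC trends of each library were removed (red circles). Ribosomal, respiratory chain, m6A and mRNA decay lists move to near 0, while chemokine, p53, clock, apolipoprotein and autophagy lists change less and stay above 0.

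Several heat shock proteins of the cytosol fell. Hspa8, the constitutive HSP70, stood at 3583, 3557 and 3907 CPM in control libraries and 2317, 2427 and 2271 CPM in knockout libraries (log2 fold change -0.66 ± 0.082, adjusted p = 6.70e-04). Hsp90aa1, the HSP70 co-chaperone Dnaja1 and the HSP110 member Hsph1 fell too, with log2 fold changes of -0.99, -1.01 and -0.81. In mitochondria the chaperonin Hspd1 fell (-0.84 ± 0.078) and mitochondrial HSP70 (Hspa9) rose (0.46 ± 0.085). Of 38 chaperones, 7 rose and 15 fell (7 higher and 14 lower without the trends). In the endoplasmic reticulum, 12 of 31 rose and 5 fell (15 higher and 5 lower without the trends). Without knockout replicate 1, 7 rose and 3 fell, in a fit that called 2016 of all 13539 genes higher. Xbp1, the factor that splicing by IRE1 activates, rose (84.2, 84.3 and 80.7 CPM against 128, 138 and 135 CPM; log2 fold change 0.69 ± 0.069, adjusted p = 3.02e-04). Calr rose by 0.48 while Canx fell by 0.42 and lost its call without the trends (-0.053).

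Among NRF2 and oxidative stress genes 12 of 40 tested members were higher and 8 lower (11 higher and 8 lower without the trends). Heme oxygenase 1 (Hmox1) rose (56.3, 55.2 and 60.5 CPM against 153, 146 and 142 CPM; log2 fold change 1.36 ± 0.075, adjusted p = 2.69e-05) and Osgin1 rose by 1.26 ± 0.085. By contrast, thioredoxin reductase 1 (Txnrd1) and glutathione reductase (Gsr) fell, with log2 fold changes of -0.41 and -0.61. The aryl hydrocarbon receptor target Cyp1a1 rose (53.05, 54.6 and 36.1 CPM against 145, 132 and 147 CPM; log2 fold change 1.56 ± 0.15, adjusted p = 2.77e-04).

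Outside the lists, the long noncoding snoRNA host Snhg1 stood at 30.8, 35.7 and 34.7 CPM in control libraries and 158, 167 and 169 CPM in knockout libraries (log2 fold change 2.29 ± 0.085, adjusted p = 6.27e-06). Small nucleolar RNAs lie in its introns. Of the 15 genes of the Snhg family and Gas5 tested, a list chosen after the values were seen, 4 were higher and 5 lower (4 higher and 4 lower without the trends). The transcription factor Tox rose (1.76, 1.85 and 3.69 CPM against 8.02, 10.4 and 8.56 CPM; log2 fold change 1.93 ± 0.28, adjusted p = 0.00115). So did Reep6, an endoplasmic reticulum protein (18.7, 16.9 and 31.4 CPM against 80.6, 97.5 and 79.3 CPM), and the glycerol channel Aqp9 (2.03 ± 0.15). Large falls were those of Pax5, the B cell commitment factor (25.04, 24.8 and 35.4 CPM in control libraries and 1.14, 1.45 and 0.930 CPM in knockout libraries), and of the retrotransposon-derived Pnma5 (138, 143 and 127 CPM in control libraries and 7.22, 7.27 and 7.85 CPM in knockout libraries). Their groups were far apart (log2 fold change -4.59 ± 0.22, adjusted p = 1.30e-05 for Pax5, and log2 fold change -4.19 ± 0.092, adjusted p = 1.05e-06 for Pnma5). Shroom4, an actin organiser, and Cand2, a cullin regulator, fell from 13.3 and 10.8 CPM to under 1 CPM (-4.13 ± 0.15 and -5.35 ± 0.22). Renbp, an epimerase of amino sugars, had 612 counts in the controls and 10 in the knockout, a ratio of 48.0 with an exact 95% counting interval from 25.9 to 100.5. Among genes with very many counts, clusterin (Clu) rose (0.86 ± 0.14), and fibronectin (Fn1) rose slightly (0.38 ± 0.10), a call that was lost in 5 of the 6 fits that left out a library, all but the one without control replicate 3 (adjusted p up to 0.0645).

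Further large falls were seen in unrelated genes. The phosphoinositide-regulated GTPase activator Arap3 stood at 68.1, 65.7 and 57.1 CPM in control libraries and 13.8, 11.7 and 12.2 CPM in knockout libraries and the peripheral myelin protein Pmp22 at 13.4, 15.2 and 17.6 CPM in control libraries and 3.74, 2.36 and 2.46 CPM in knockout libraries. Both kept a wide gap between groups (log2 fold change -2.34 ± 0.11, adjusted p = 1.30e-05 for Arap3, and log2 fold change -2.43 ± 0.19, adjusted p = 1.36e-04 for Pmp22). Car8, a carbonic anhydrase relative without enzyme activity, fell (6.58, 7.29 and 8.24 CPM against 0.513, 0.609 and 0.335 CPM; log2 fold change -3.91 ± 0.22, adjusted p = 3.11e-05). The calcium channel subunit Cacna2d1 fell by 2.24. Among further rises, the epidermal lipoxygenase Aloxe3 had 1.27, 1.43 and 1.22 CPM in control libraries and 6.19, 5.33 and 5.66 CPM in knockout libraries and the esterase Iah1 5.52, 5.77 and 4.10 CPM in control libraries and 23.2, 20.9 and 22.96 CPM in knockout libraries, each without overlap (2.13 ± 0.15 and 2.11 ± 0.14 on the log2 scale).

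Some genes were present in 1 group alone. Slc16a7, a monocarboxylate transporter, had 0 counts in all 3 controls and 96, 126 and 92 in the knockout, at least 134-fold higher against a floor of 3 counts over the control group. Xlr3c, an X-linked gene, had 232, 273 and 129 counts in the controls and 0 in every knockout library, at least 166-fold lower against the same floor over the knockout group. Xlr3c has near-identical copies and was also at 0 in all 3 Usp5 knockout libraries, and Slc16a7 was at 0 there. Counting intervals and floors cover counting error only.

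Translation factors were mixed: 12 of 42 tested members were higher and 8 lower (10 higher and 8 lower without the trends), with the start codon factor Eif1 higher (252, 272 and 189 CPM against 454, 416 and 473 CPM; log2 fold change 0.91 ± 0.14, adjusted p = 0.00142) and the helicase cofactor Eif4b lower (732, 708 and 741 CPM against 431, 437 and 437 CPM; log2 fold change -0.74 ± 0.069, adjusted p = 2.18e-04). Of proteasome subunits, 9 of 39 tested members were higher and 7 lower, or 23.1% and 17.9%, near the shares of all genes, and the direction turned without the trends (8 higher and 11 lower). Of ribosome biogenesis genes 12 of 40 tested members were higher and 10 lower (13 higher and 9 lower without the trends). Leaving out knockout replicate 1 or 3 left 7 translation factors, 4 or 5 proteasome subunits and 7 ribosome biogenesis genes higher, and 7 translation factors were higher without control replicate 2. In the mRNA decay list 6 of 37 tested members were higher and 14 lower, and without the trends the counts were 7 higher and 7 lower, while 9 were lower without knockout replicate 1 or 3.

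Across the autosomes and the X chromosome, median log2 fold changes ran from -0.18 on chromosome 16 (36.2% of 401 genes lower and 9.98% higher) to 0.13 on chromosome 7 (28.7% of 1049 genes higher and 16.5% lower). Chromosome 16 was at -0.13 after the length trend was removed, and in the Usp5 knockout its median was 0.29. Among gene types, the 221 genes marked TEC (to be experimentally checked) had a median of -0.55 and 886 long noncoding RNA genes one of -0.19, against -0.00028 for 11965 protein-coding genes.

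The direct contrast with the Usp5 knockout, which uses no control library for the difference, sets these levels against those in another edited line. It called 6612 of 13539 genes (48.8%), 3408 higher and 3204 lower in the Ythdf1 knockout. Ciart was higher in the Ythdf1 than in the Usp5 knockout by 3.10 ± 0.10 on the log2 scale (edgeR quasi-likelihood test, adjusted p = 1.50e-08), Angptl8 by 3.75 ± 0.12 (adjusted p = 1.50e-08) and Mmp3 by 2.60 ± 0.21 (adjusted p = 8.67e-06). Lower were Elovl6 (-1.89 ± 0.09), Scd2 (-1.79 ± 0.086), Bnip3 (-1.70 ± 0.11), Col6a1 (-3.45 ± 0.14) and Pnma5 (-3.68 ± 0.10). Igfbp1 and Areg were higher by 1.26 ± 0.11 and 1.14 ± 0.10. Other changes were not shown to differ between the knockouts: Renbp by 0.024 ± 0.55 (adjusted p = 0.987) and Plekhg1 by 0.44 ± 0.23 (adjusted p = 0.132), which had 0.837, 0.831 and 1.34 CPM in control libraries and 5.31, 7.80 and 5.80 CPM in knockout libraries. By list, the contrast gave 10 higher and 1 lower of 20 clock genes, 40 higher and 3 lower of 62 autophagy and lysosome genes, 23 higher and 4 lower of 35 p53 targets, 3 higher and 41 lower of 68 mitotic genes and 22 higher and 0 lower of 27 histones. These counts also follow gene length, since no trend was removed from this contrast. Its median log2 fold change ran from 0.25 in the bin of the shortest genes to -0.24 in that of the longest. The counts also depend on changes in the Usp5 knockout. The median log2 fold changes of the Usp5 knockout against the controls were 0.061, -0.088, -0.081, 0.080 and, for the histones, -0.94, in the same order of lists.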

How the data were processed

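Poly(A) mRNA of 9 Hepa 1-6 samples was sequenced, and the 3 control and 3 Ythdf1 knockout samples form the comparison, grouped by their labels. The deposited table gives estimated counts per gene, with a length and an effective length. The submitters' processing notes name fastp 0.23.2, STAR 2.7.10a, Salmon 1.9.0 and the build GRCm39, without saying what each was used for. No source used here gives the strand setting of the counting. Reads of overlapping and antisense genes may therefore be mixed, and near-identical genes can share reads.

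Counts were used as deposited. Genes with at least 10 counts in 3 or more of the 6 samples were tested with edgeR 4.0.16 (R 4.3.3, TMM, quasi-likelihood test, Benjamini-Hochberg adjustment over all genes tested, threshold 0.05). The direct contrast of the knockouts was fitted on all 9 samples. Standard errors (±) of log2 fold changes come from these fits. Scripts were tested on simulated counts. Smooth trends of each library with length, and with length and GC content, were removed as offsets (lowess span 0.3); the fit with GC content was chosen after seeing the data. Gene lists carry no test. Members and lists were chosen with earlier results of these data known. Named genes are the YTH readers, the 20 largest changes in each direction at 5 CPM or more without overlap and outside the ATF4 and cholesterol lists, up to 4 members per list and direction, the 10 most abundant called genes per direction, genes at 0 in 1 group and the largest changes in the extreme length bins; other genes named, such as Cry1, Fasn and Hbegf, were chosen after their values were seen. Some genes that the rule picks are not reported here. GC content came from GENCODE vM21 and promoters from RefSeq, both on GRCm38, an earlier build than that of the counts, and were matched by gene.

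Replicate numbers did not pair the samples: deviations of same-numbered libraries correlated at 0.141, -0.195 and -0.26. Alternatives were DESeq2 1.42.0, limma 3.58.1 (voom), other scalings and filters, a replicate block and leaving out each library. Total counts ran from 24760877 to 41903529.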

Additional observations from a re-analysis of the deposited data

How the results depend on the processing

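The number of genes called in the Ythdf1 knockout (6228) was 6220 with RLE scaling, 6517 with DESeq2, 6260 with limma voom, 5736 with at least 50 counts in 3 samples, 6342 of 24319 genes without a filter and 6350 with all 9 samples in the fit. At an adjusted p under 0.01 it was 3856, by construction lower. With a replicate block it was 4691, and the 2-fold count was 1104 and the count of the direct contrast 6419; the replicate numbers did not pair the samples. The 2-fold count (1239) was 750 with at least 50 counts in 3 samples, where 11251 genes were tested. Leaving out each library in turn gave 4324 to 7413 calls, 1073 to 1306 with a 2-fold change, 4983 to 7531 in the direct contrast and a difference in length slope of -0.146 to -0.203. Single genes and lists were followed over 17 alternative fits, without the 0.01 threshold and without a test against a 1.5-fold change. Of 208 genes named, 194 were called. Of these, 180 kept their call and direction in every one of the 17 fits that gave them an adjusted p. Ythdc2 reversed to 0.037 and Ythdc1, not called before, to 0.38 with the length and GC trends removed, an alternative chosen after seeing the data; the cause was not tested. In the lists of clock, MAP kinase feedback and immediate early, p53, autophagy, mitotic, cilium and chemokine genes the count in the leading direction stayed within 1.5 times in all 17 alternative fits. It did not for cytosolic ribosomal proteins (15 to 50 higher), respiratory chain subunits (15 to 39 higher), mitochondrial ribosomal proteins (15 to 30 higher), mitochondrially encoded transcripts (0 to 13 higher), splicing factors (19 to 37 lower), chromatin genes (15 to 34 lower), mRNA decay genes (7 to 19 lower), m6A genes (5 to 11 lower) histones (11 to 20 higher), ribosome biogenesis genes (6 to 15 higher), translation factors (7 to 15 higher), iron and heme genes (3 to 8 higher), antigen presentation genes (5 to 12 higher), tumour immune ligands (5 to 10 higher), junction proteins (10 to 20 higher), cytoskeleton genes (8 to 17 higher), proteasome subunits (4 to 11 higher), ER chaperones (7 to 15 higher), mTORC1 genes (9 to 19 higher), YAP targets (7 to 14 higher), Wnt, Notch and Hedgehog genes (6 to 13 lower), and the marker lists of biliary cells (3 to 5 higher), leukocytes (0 to 1 higher) and stellate cells (1 to 2 lower).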
